A study of Mus musculus with 21 samples.

Results

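Megakaryocyte-erythroid progenitors (MEP) from mice carrying the S211I substitution in Etv6 were set against MEP from wild-type (WT) mice, as the 2 S211I libraries and the 2 WT libraries given for these groups, 4 of the 21 RNA-seq libraries of the series. No gene separated S211I from WT MEP past an adjusted p of 0.05 among 10773 genes tested. The series as a whole holds 8 groups, formed by S211I, P216L, double mutant and WT animals in MEP (10 libraries) and in hematopoietic stem cells (HSC, 11 libraries). In MEP, the S211I animals carried the S211I change alone, 3 P216L libraries came from animals with the P216L change alone, 3 double mutant libraries came from animals with both changes, and the WT animals had neither. The allele is S211I in the sample titles but P211I in the genotype field, and both are taken here as the same allele. All cells were sorted from mouse bone marrow by flow cytometry, and low amounts of RNA were amplified for sequencing. Age, sex, strain, zygosity, the gating of MEP and the number of animals behind each library are not given in the labels used here. The p-values below therefore measure the spread between libraries, which may be technical.

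MEP are bone marrow progenitors that give rise to red cells and to megakaryocytes, the large cells that shed platelets. Etv6 is a transcriptional repressor of the ETS family, with a pointed domain that lets the protein pair with itself and a DNA-binding ETS domain, joined by a linker. In humans, germline variants of ETV6 cause an inherited low platelet count with a predisposition to leukemia, and the title of the series concerns a mutation that creates a nuclear export signal. The comparison of S211I with WT asks what the S211I change alone does to the transcripts of MEP.

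The reference sequence around the altered codons is shown because it places both substitutions of the series in the gene. It lies at chr6:134248420-134248473 of GRCm38, on the plus strand, in coding exon sequence of exon 5 of the principal Etv6 transcript in GENCODE, and covers codons 205 to 222. The first capitals mark the codon named in S211I (AGC, serine) and the next the codon named in P216L (CCA, proline).
Etv6 codons 205 to 222: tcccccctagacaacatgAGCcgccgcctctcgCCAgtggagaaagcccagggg
The first of these codons reads serine in the reference, as in the name S211I, and not proline, as in P211I.

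The S211I libraries held 5347922 and 5492029 counts and the WT libraries 5783934 (replicate 1) and 12130358 (replicate 3), so that WT replicate 3 was the deepest of the 10 MEP libraries, which ran from 3387389 to 12130358. S211I replicate 1 had the fewest genes with a count, 12713, against 15740 in S211I replicate 2 and 14167 and 15889 in the WT libraries. The libraries of one genotype were no more alike than libraries of different genotype. Across genes, log expression (counts scaled to library size, CPM) correlated at 0.961 between the S211I libraries and at 0.968 between the WT libraries, and between 0.956 and 0.972 across the genotypes. The labelled cell type was checked against its markers: 6 erythroid markers (Gata1, Klf1, Epor, Rhag, Car1, Car2) summed to 20600 to 21600 CPM of the library total in S211I and 22000 to 23800 in WT, and 5 megakaryocyte markers (Itga2b, Gp1ba, Gp9, Pf4, Vwf) to 39.1 to 55.2 CPM in S211I and 41.1 to 45.3 in WT. The marker levels of both genotypes were thus mostly erythroid, with low megakaryocyte transcripts.

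No transcript separated S211I from WT MEP past the adjusted threshold. With the edgeR quasi-likelihood test and Benjamini-Hochberg adjustment over all genes, 0 of 10773 genes passed an adjusted p of 0.05 (0%), and the smallest adjusted p was 0.94. At an unadjusted p below 0.05 there were 511 genes (4.74%), of which 307 were higher in S211I (2.85%) and 204 lower (1.89%). DESeq2 called 0 genes, with 514 at an unadjusted p below 0.05, and limma with voom called 0, with 599. Divided into 20 bins of equal width, the p-values gave 468 to 609 genes a bin, with 511 in the lowest bin, where an equal share would be 538.6. The log2 fold change of S211I over WT was above 0 for 5444 genes (50.5%). Both S211I libraries lay above both WT libraries for 1952 genes (18.1%) and below both for 2013 (18.7%), together 3965 genes (36.8%).

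The precision of this comparison depended on the level of a gene. Among 2635 genes with a mean of at least 100 CPM, the 95% interval of the log2 fold change lay within 1 on either side of 0 for 2628 (99.7%), with a median standard error of 0.15. Among 4121 genes between 20 and 100 CPM this held for 3845 (93.3%), with a median standard error of 0.22. Below 20 CPM it held for 812 of 4017 genes (20.2%), and the median standard error was 0.52. For most genes above 20 CPM the interval thus left no room for a change of 2-fold or more, and for most genes below 20 CPM it did. Of the 6756 genes with a mean of at least 20 CPM, 5 had a fitted log2 fold change beyond 1 in either direction.

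**Figure D1:**
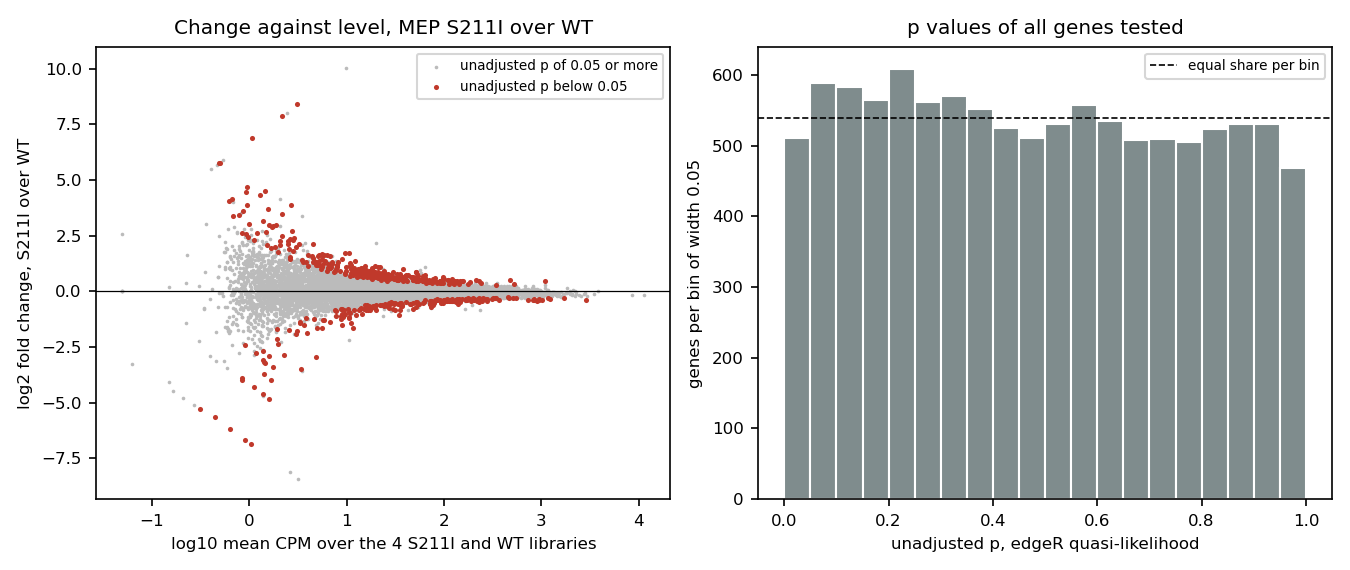
Left, log2 fold change of S211I over WT against log10 of the mean CPM of the 4 libraries, 1 point a gene, with genes at an unadjusted p below 0.05 in red. Right, number of genes in each p-value bin of width 0.05, with the equal share of 538.6 genes as a dashed line; the lowest bin holds 511 genes, and 0 genes passed the adjusted threshold.

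Etv6 itself was measured at 46.7 and 35.7 CPM in the S211I libraries and at 23.4 and 32.7 CPM in the WT libraries (all gene levels below are CPM with TMM-normalised library sizes unless said otherwise). Both S211I libraries lay above both WT libraries, with a log2 fold change of 0.54 ± 0.26 (SE) and an edgeR adjusted p of 0.94. As the allele is a substitution of a codon, its read count does not check the genotype. Of the 15 tested genes of the ETS family, 9 had a positive log2 fold change and the median was 0.38, against 0.0042 over all genes. Without WT replicate 1 that median was −0.06 and without WT replicate 3 it was 0.52, so its sign rested on 1 library. Elf2, an ETS factor of blood cells, stood at 27.4 and 27.1 CPM in S211I and 16.3 and 17.6 CPM in WT, and its relative Elf1 at 80.3 and 82.2 CPM in S211I and 56.7 and 62.8 CPM in WT. Both genes, named for a small p, had S211I libraries above WT libraries (18.1% of all genes did), with edgeR adjusted p-values of 0.94. Gabpa, the most abundant ETS gene of the list, stood at 141 and 93.4 CPM in S211I and 124 and 116 CPM in WT and overlapped between the genotypes. Spib, an ETS factor of lymphoid cells, was near its detection limit, at 0.931 and 0.178 CPM in S211I and 1.24 and 2.98 CPM in WT.

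Etv6 acts through co-repressors (nuclear corepressors, Sin3 proteins, histone deacetylases and NuRD subunits), and 18 of the 20 tested genes of that list had intervals within 1 of no difference. Their log2 fold changes had a median of −0.01, and 0 of the 20 reached an unadjusted p of 0.05. Mta2, a NuRD subunit, stood at 544 and 601 CPM in S211I and 600 and 601 CPM in WT. Hdac3, the deacetylase of the nuclear corepressor complex, stood at 193 and 155 CPM in S211I and 145 and 146 CPM in WT, and Sin3b at 70.4 and 85.1 CPM in S211I and 98.6 and 84.4 CPM in WT. Of 30 genes of nuclear export and import, 29 had intervals within 1 and the median was 0.03. Ran, the GTPase that drives transport through the nuclear pore, stood at 1063 and 1029 CPM in S211I and 1243 and 1123 CPM in WT, without overlap. Kpnb1 (importin beta) stood at 139 and 107 CPM in S211I and 172 and 156 CPM in WT, and Xpo7, an exportin of the red cell lineage, at 25.9 and 23.9 CPM in S211I and 11.3 and 19.8 CPM in WT, each with an adjusted p of 0.94.

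The genes with the smallest p-values are given as the leading candidates of the comparison, and none passed the adjustment. The gene with the smallest p was D3Ertd751e, at 17.1 and 15.9 CPM in S211I and 2.83 and 6.54 CPM in WT, a log2 fold change of 1.75 ± 0.37 with an edgeR adjusted p of 0.94. In P216L and double mutant MEP it stood at 17.6, 13.2 and 19.3 CPM (P216L) and 13.9, 13.9 and 10.7 CPM (double mutant), so the WT libraries were the low ones among the 10. The gene was chosen on its difference from these WT libraries, which favours a low WT, so the other mutants add no separate support. Spice1, a centriole protein of the mitotic spindle, stood at 20.5 and 14.4 CPM in S211I and 8.14 and 5.80 CPM in WT (log2 fold change 1.35 ± 0.32). Cenpc1, a centromere protein, stood at 60.0 and 74.5 CPM in S211I and 29.2 and 43.4 CPM in WT (0.88 ± 0.24). In each of these genes the S211I and WT libraries did not overlap. That was so for 36.8% of all genes, and a choice by small p favours it. Nothing is read from it here or for the genes named by p below.

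S211I was also on the higher side for Nemp1, a protein of the inner nuclear membrane, at 81.2 and 52.3 CPM in S211I and 40.4 and 36.5 CPM in WT (0.80 ± 0.23), and for Snx14, a sorting nexin, at 69.5 and 64.9 CPM in S211I and 38.8 and 44.8 CPM in WT (0.68 ± 0.19). Nemp1 stood at 43.8, 52.1 and 36.9 CPM in P216L and 44.2, 42.4 and 38.1 CPM in the double mutant. Snx14 stood at 59.6, 56.0 and 70.5 CPM in P216L and 71.5, 69.5 and 56.2 CPM in the double mutant, all above both WT libraries. The choice of Snx14 used the same WT libraries, so nothing is read from this. Sh3tc2, known for its part in the myelination of nerves, stood at 86.0 and 75.3 CPM in S211I, at 51.3, 35.3 and 30.9 CPM in P216L, at 36.4, 33.9 and 35.9 CPM in the double mutant and at 51.3 and 44.8 CPM in WT. Here the S211I libraries were the high ones among the 10 (0.75 ± 0.22 over WT). AB010352 was low, at 3.91 and 10.9 CPM in S211I and 0.885 and 2.24 CPM in WT. Lamc1, a laminin chain of basement membranes, had 31 counts over the S211I libraries and 2 over the WT libraries, a ratio of 25.6 with an exact counting interval of 6.52 to 221; the interval covers counting error only. It stood at 2.70, 2.77 and 1.10 CPM in the double mutant. The adjusted p of each of these genes was 0.94.

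Gm7334, a transcribed pseudogene on chromosome 17, was read in both S211I libraries, at 7.81 and 4.75 CPM of the library total, and at 0 in the WT libraries and in all 6 P216L and double mutant libraries. Against 3 counts over the summed WT libraries this is at least 37.5-fold higher in S211I. In HSC it was at 0 in both S211I libraries and at 16.1 CPM in 1 P216L library. Salmon divides reads among similar transcripts, so the count of a pseudogene can hold reads of its parent gene and is uncertain.

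On the lower side, Zfp729a, a zinc finger gene of a large repeated family whose counts are uncertain for that reason, stood at 4.66 and 4.46 CPM in S211I and 14.7 and 11.8 CPM in WT (log2 fold change −1.53 ± 0.38). Helb, a DNA helicase of replication stress, stood at 22.9 and 20.5 CPM in S211I and 39.8 and 35.6 CPM in WT (−0.79 ± 0.22). Glipr2, a protein of the Golgi, stood at 22.7 and 22.8 CPM in S211I and 44.6 and 36.8 CPM in WT (−0.83 ± 0.24). Cnep1r1, a regulator of lipin phosphatase at the nuclear envelope, stood at 42.5 and 36.6 CPM in S211I and 73.8 and 55.6 CPM in WT (−0.71 ± 0.21). None of these genes overlapped between the genotypes, which their choice by small p favours, and each had an edgeR adjusted p of 0.94.

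Crcp, a subunit of RNA polymerase III, stood at 57.7 and 58.7 CPM in S211I and 88.0 and 84.3 CPM in WT (−0.56 ± 0.17). Fdft1, the squalene synthase of cholesterol synthesis, stood at 20.3 and 20.5 CPM in S211I and 32.4 and 35.9 CPM in WT (−0.75 ± 0.23), and Ago1, of the microRNA silencing complex, at 5.21 and 7.67 CPM in S211I and 17 and 12.1 CPM in WT (−1.16 ± 0.36). In each the libraries of the genotypes stood apart, which the choice by small p favours, and the edgeR adjusted p was 0.94. Trnp1 stood at 1.30 and 0.892 CPM in S211I and 9.38 and 7.87 CPM in WT. Slc7a8, an amino acid transporter, had 2 counts over the S211I libraries and 51 over the WT libraries, a ratio of 0.0648 (exact counting interval 0.00764 to 0.246). 9930111J21Rik2 had 1 count in S211I and 47 in WT, a ratio of 0.0352 (0.000872 to 0.206).

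**Figure D2:**
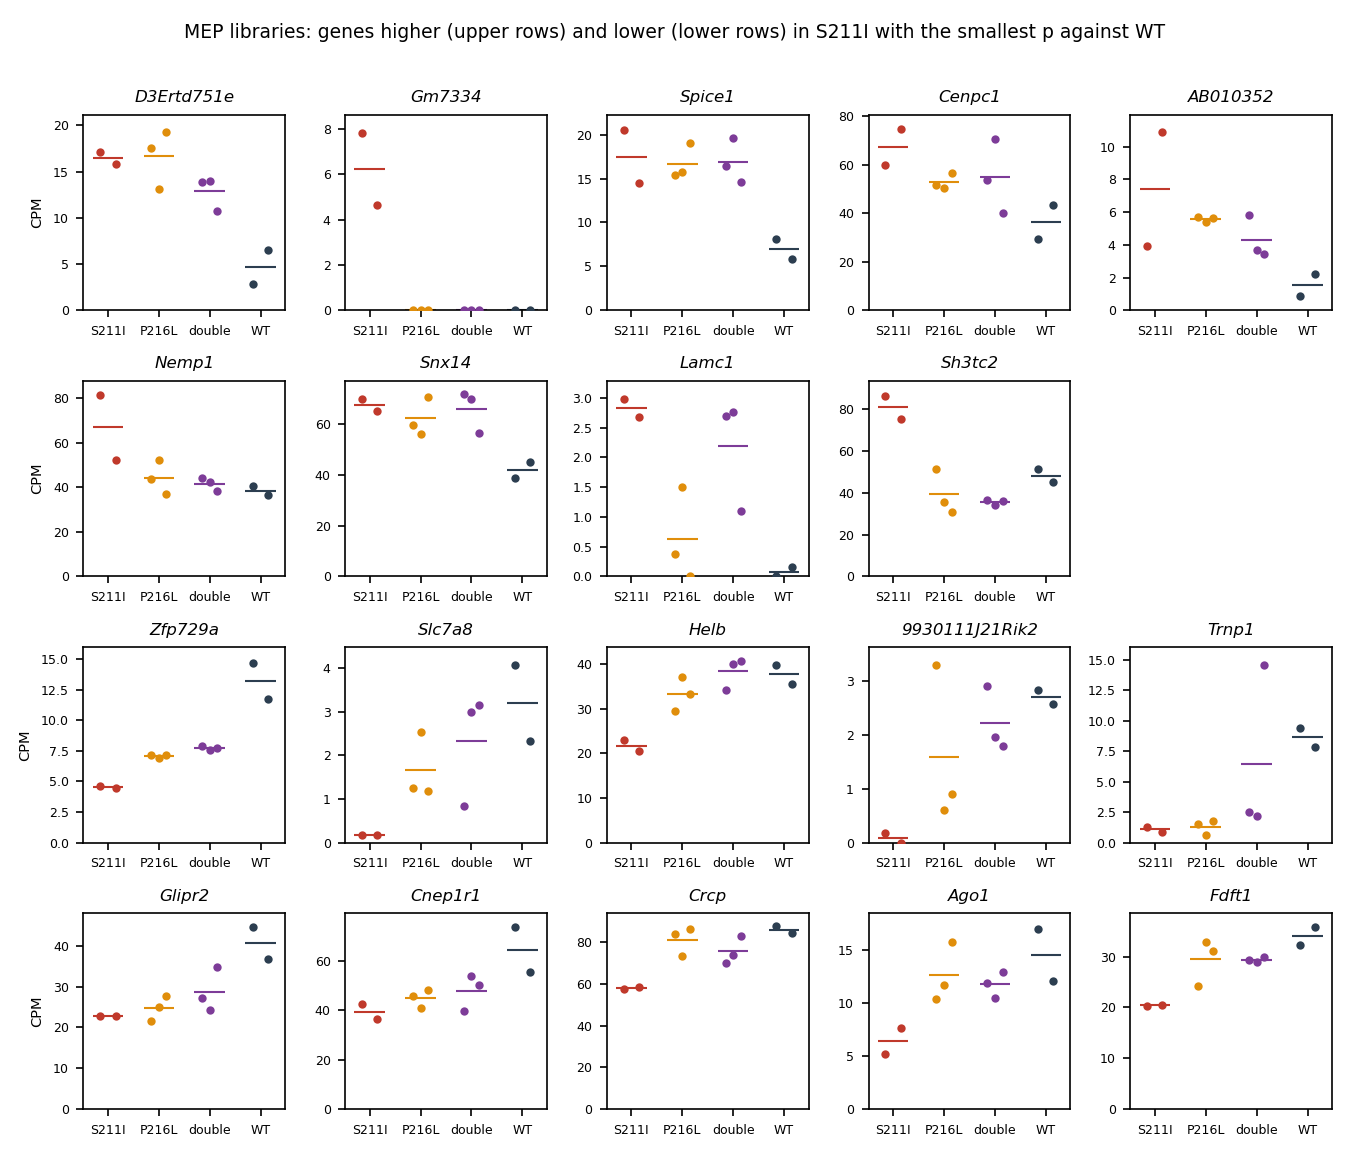
CPM in each MEP library (points; bar, mean of the group) for genes with the smallest p-values between S211I and WT, with S211I left, then P216L, the double mutant and WT; the y axis starts at 0 in each panel. D3Ertd751e lies at 17.1 and 15.9 CPM in S211I, near the other mutants and above the WT libraries at 2.83 and 6.54 CPM, while Sh3tc2 is high in S211I alone. The genes were chosen on the difference between these S211I and WT libraries, which favours a low WT or a high S211I.

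Among genes with a mean of at least 20 CPM and no overlap between the genotypes, the largest log2 fold changes stayed near 1. Hps5, a subunit of a complex that builds lysosome-related organelles such as platelet dense granules, stood at 34.8 and 23.2 CPM in S211I and 8.50 and 17.9 CPM in WT (1.10, 95% interval 0.36 to 1.84). Lman2l, a cargo receptor of the early secretory pathway, stood at 28.3 and 31.4 CPM in S211I and 16.3 and 12 CPM in WT (1.09, 0.42 to 1.76). Acap1, of endosome recycling, stood at 40.6 and 61.0 CPM in S211I and 16.5 and 33.4 CPM in WT. Zscan29 stood at 28.7 and 35 CPM in S211I and 16.3 and 17.6 CPM in WT, and Sgms1, a sphingomyelin synthase, at 37.4 and 40.7 CPM in S211I and 17 and 25.3 CPM in WT.

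For Jun, Ppp2r5e and H2-Q7 the difference rested on 1 WT library. Jun, the immediate early transcription factor, stood at 76.7 and 71.7 CPM in S211I, against 66.4 and 12.8 CPM in WT, and Ppp2r5e, a regulatory subunit of phosphatase 2A, at 30.9 and 30.7 CPM in S211I, against 25.7 and 6.71 CPM in WT. H2-Q7, a nonclassical class I gene with near-identical copies, stood at 72.3 and 103 CPM in S211I, against 13.8 and 66.7 CPM in WT. Their intervals all included 0.

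Among the lowest, Pfkfb4, which sets the level of a glycolysis activator, stood at 20.7 and 23.9 CPM in S211I and 52.4 and 40.4 CPM in WT (−1.05, 95% interval −1.85 to −0.26). Rec8, a cohesin subunit known from meiosis, stood at 27.0 and 43.7 CPM in S211I and 68.3 and 54.8 CPM in WT. Tspan15, a tetraspanin partner of the protease Adam10, stood at 30.7 and 19.4 CPM in S211I and 58.2 and 32.9 CPM in WT. Endog, a mitochondrial nuclease, stood at 11.7 and 17.3 CPM in S211I and 30.5 and 21.6 CPM in WT. Pex11a, of peroxisome division, stood at 12.3 and 28.4 CPM in S211I and 36.3 and 38.3 CPM in WT, and the RNA-binding protein gene Raly at 15.3 and 19.8 CPM in S211I and 35.9 and 25.3 CPM in WT; the intervals of the last pair included 0.

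Fam177a2 also belonged to the lowest genes, and its counts are uncertain because it has a near-identical copy. It stood at 50.1 and 12.5 CPM of the library total in S211I and 51.8 and 56.2 CPM in WT. Its copy Fam177a stood at 6.996 and 33.1 CPM in S211I and 0 and 0 CPM in WT. Their sum was 57.1 and 45.6 CPM in S211I and 51.8 and 56.2 CPM in WT, which overlapped. Fam177a was picked out after its values were seen.

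No gene of the erythroid program passed the adjustment, and most had narrow intervals. Of 29 tested erythroid genes, 8 had a positive log2 fold change, the median was −0.10 and 24 had intervals within 1; 2 were higher and 1 lower at an unadjusted p below 0.05 (10.3% of the list, against 4.74% of all genes). The median was −0.15 without WT replicate 3 and −0.058 without WT replicate 1. Gata1, the master factor of both lineages of MEP, stood at 456 and 440 CPM in S211I and 450 and 494 CPM in WT (log2 fold change −0.08, 95% interval −0.33 to 0.17). Klf1, the erythroid Krüppel-like factor, stood at 652 and 702 CPM in S211I and 713 and 641 CPM in WT (0.00062, −0.27 to 0.27). Both transcription factors overlapped between the genotypes.

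The carbonic anhydrase Car2 was the most abundant gene of the list, at 10526 and 10907 CPM in S211I and 12868 and 11135 CPM in WT (−0.16, −0.41 to 0.08). Car1 stood at 8094 and 8192 CPM in S211I and 9152 and 8786 CPM in WT (−0.14, −0.38 to 0.10). Both carbonic anhydrases lay slightly lower in the S211I libraries, without overlap and with intervals that included 0. For Car2 this depended on the scaling. As CPM of the library total it overlapped, at 10570 and 11140 in S211I and 12570 and 11090 in WT. Tfrc, the transferrin receptor that brings iron into the cell, stood at 643 and 480 CPM in S211I and 421 and 372 CPM in WT (0.50 ± 0.16, edgeR adjusted p 0.94). Epb42, a protein of the red cell membrane skeleton, stood at 48.6 and 53.9 CPM in S211I and 36.3 and 26.0 CPM in WT (0.73 ± 0.28). Rhag, of the Rhesus complex in the red cell membrane, stood at 708 and 722 CPM in S211I and 1034 and 855 CPM in WT (−0.40 ± 0.14). The receptor, the skeleton protein and Rhag, each named for a small p, had no overlap between genotypes (36.8% of all genes had none).

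Globin transcripts were low in all 4 libraries and lower in S211I, with wide intervals. Hba-a2 stood at 175 and 166 CPM in S211I and 367 and 233 CPM in WT (−0.81, 95% interval −2.00 to 0.38), and Hba-a1 at 186 and 125 CPM in S211I and 276 and 193 CPM in WT. Hbb-bs stood at 139 and 105 CPM in S211I and 251 and 165 CPM in WT, and Hbb-bt at 70.6 and 39.0 CPM in S211I and 103 and 80.2 CPM in WT. Both alpha and both beta genes are near-identical pairs, so the division of counts within a pair is uncertain, and no interval of the 4 excluded 0.

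Of 23 tested genes of heme synthesis and iron handling, 22 had intervals within 1 and the median was −0.08 (−0.052 without WT replicate 1). An unadjusted p below 0.05 was reached by 1 gene (4.35% of the list, against 4.74% of all genes). It was Uros, the enzyme that closes the porphyrin ring, at 102 and 88.6 CPM in S211I and 73.1 and 72.1 CPM in WT (0.39 ± 0.17). Fth1, the ferritin heavy chain, stood at 2841 and 2628 CPM in S211I and 3243 and 2963 CPM in WT (−0.18, −0.44 to 0.08).

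**Figure D3:**
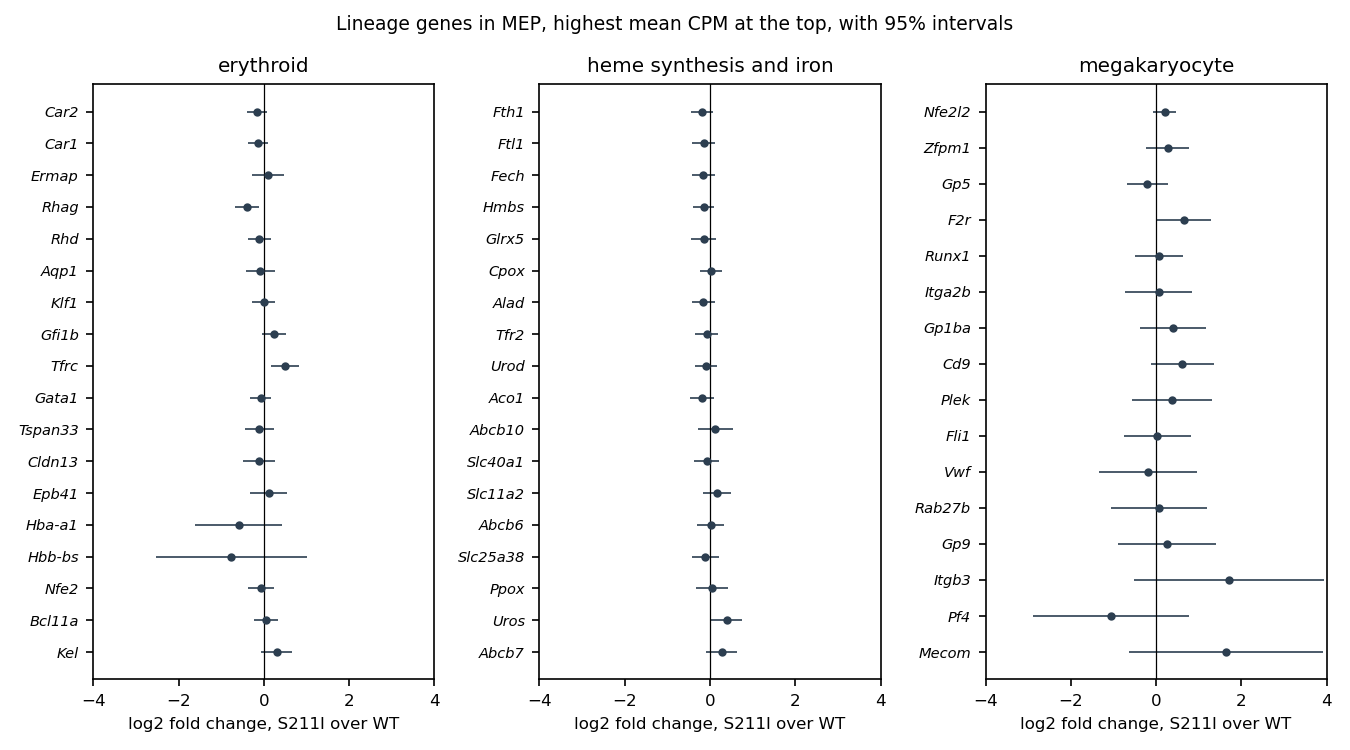
Log2 fold change of S211I over WT with its 95% interval for members of the erythroid, heme and iron, and megakaryocyte gene lists. Members are ordered by mean CPM with the highest at the top of each panel. Intervals are narrow for abundant erythroid genes such as Gata1 (−0.33 to 0.17) and wide for rarely read megakaryocyte genes.

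Megakaryocyte genes were measured with less precision. Of 28 listed genes 18 passed the filter on low counts, 14 of them had a positive log2 fold change, the median was 0.23 and 6 had intervals within 1. Nfe2l2, a stress-response factor, was the most abundant member, at 341 and 349 CPM in S211I and 294 and 305 CPM in WT (0.20, 95% interval −0.07 to 0.47). F2r, the thrombin receptor, stood at 53.8 and 63.7 CPM in S211I and 20.2 and 52.7 CPM in WT (0.66 ± 0.30), and the WT libraries differed more from each other than the S211I libraries did. Itga2b, the integrin of the platelet fibrinogen receptor, stood at 15.3 and 26.4 CPM in S211I and 12.2 and 27.2 CPM in WT. The genotypes overlapped for Itga2b.

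Of 16 tested platelet cytoskeleton genes, 10 were positive and the median was 0.15, with 0.055 without S211I replicate 1 and 0.23 without S211I replicate 2. Gsn (gelsolin, which severs actin filaments) stood at 19.6 and 19.97 CPM in S211I and 9.56 and 12.6 CPM in WT (0.82 ± 0.29). Myh10, a non-muscle myosin that is switched off as megakaryocytes mature, stood at 72.1 and 77.7 CPM in S211I and 94.9 and 96.8 CPM in WT (−0.36 ± 0.17). Pfn1 (profilin) stood at 1337 and 1264 CPM in S211I and 1418 and 1378 CPM in WT.

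Cytosolic ribosomal protein genes were slightly lower in the S211I libraries, all in the same direction. All 36 tested members had a negative log2 fold change over WT, from −0.40 to −0.03, with a median of −0.23, against a median of 0.0042 over all genes, of which 50.5% were positive. In 27 members both S211I libraries lay below both WT libraries (75.0%, against 18.7% of all genes). The members were read in the same 4 libraries and are not independent of each other, so their number does not replace replicates. This holds for the lists below as well. At an unadjusted p below 0.05, 4 were lower (11.1%, against 1.89% of all genes). Rpl4, the most abundant, stood at 2025 and 2058 CPM in S211I and 2415 and 2261 CPM in WT (−0.20, 95% interval −0.46 to 0.06). Rpl13 stood at 878 and 884 CPM in S211I and 1327 and 991 CPM in WT (−0.40 ± 0.15), Rps6 at 749 and 716 CPM in S211I and 1003 and 884 CPM in WT (−0.36 ± 0.15), and Rps19, the gene most often mutated in Diamond-Blackfan anemia, at 602 and 686 CPM in S211I and 898 and 756 CPM in WT (−0.36 ± 0.16). No member passed the adjustment, and 35 of the 36 intervals lay within 1.

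Summed over the list, ribosomal protein transcripts took 17440 and 18380 CPM of the library total in S211I, 19330, 18530 and 23470 CPM in P216L, 18730, 19440 and 24000 CPM in the double mutant, and 22070 and 19320 CPM in WT. Both S211I libraries were thus the lowest of the 10, with S211I replicate 2 close to P216L replicate 2. The log2 fold change of S211I was negative for 34 of 36 members over P216L (median −0.21) and for 35 of 36 over the double mutant (median −0.25). These comparisons share the S211I libraries and are not independent. Against WT, the median of the list was −0.32 without WT replicate 3 and −0.15 without WT replicate 1.

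Most subunits of oxidative phosphorylation also had a negative log2 fold change, and these members are likewise not independent of each other. Of 34 tested genes 33 were negative over WT, the median was −0.17, all 34 intervals lay within 1 and 0 had an unadjusted p below 0.05; 18 had both S211I libraries below both WT libraries (52.9%, against 18.7% of all genes). The median was −0.24 without WT replicate 3 and −0.077 without WT replicate 1. The one positive member was Sdha, a subunit of complex II, at 817 and 871 CPM in S211I and 825 and 827 CPM in WT. Atp5b, of the ATP synthase, stood at 2742 and 2740 CPM in S211I and 2824 and 2869 CPM in WT, and Cyc1 (cytochrome c1 of complex III) at 363 and 370 CPM in S211I and 441 and 413 CPM in WT (−0.22, −0.50 to 0.05). The sum over the list was 14640 and 15010 CPM of the library total in S211I, 15650, 15350 and 18360 CPM in P216L, 16260, 15960 and 16540 CPM in the double mutant and 15750 and 15290 CPM in WT. Again both S211I libraries were the lowest of the 10, by a small margin below WT replicate 3. Genes with a mean of at least 100 CPM had a median log2 fold change of −0.05.

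Of 27 genes of the nucleolus and Myc targets, 5 were positive, the median was −0.12 (−0.075 without S211I replicate 1) and 3 were lower at an unadjusted p below 0.05 (1.89% of all genes were). Npm1 (nucleophosmin) stood at 1097 and 1029 CPM in S211I and 1367 and 1238 CPM in WT (−0.29 ± 0.12), and Ddx21, a nucleolar helicase, at 222 and 226 CPM in S211I and 279 and 278 CPM in WT (−0.31 ± 0.14). Max, the partner of Myc, stood at 5.59 and 4.28 CPM in S211I and 11.9 and 9.27 CPM in WT (−1.09 ± 0.39). In all 3, named for a small p, the S211I libraries lay below the WT libraries (18.7% of all genes did). Myc itself stood at 853 and 827 CPM in S211I and 679 and 837 CPM in WT, with overlap. Ncl (nucleolin) stood at 2009 and 1969 CPM in S211I and 2120 and 2188 CPM in WT, and Nop58 at 370 and 318 CPM in S211I and 300 and 317 CPM in WT.

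**Figure D4:**
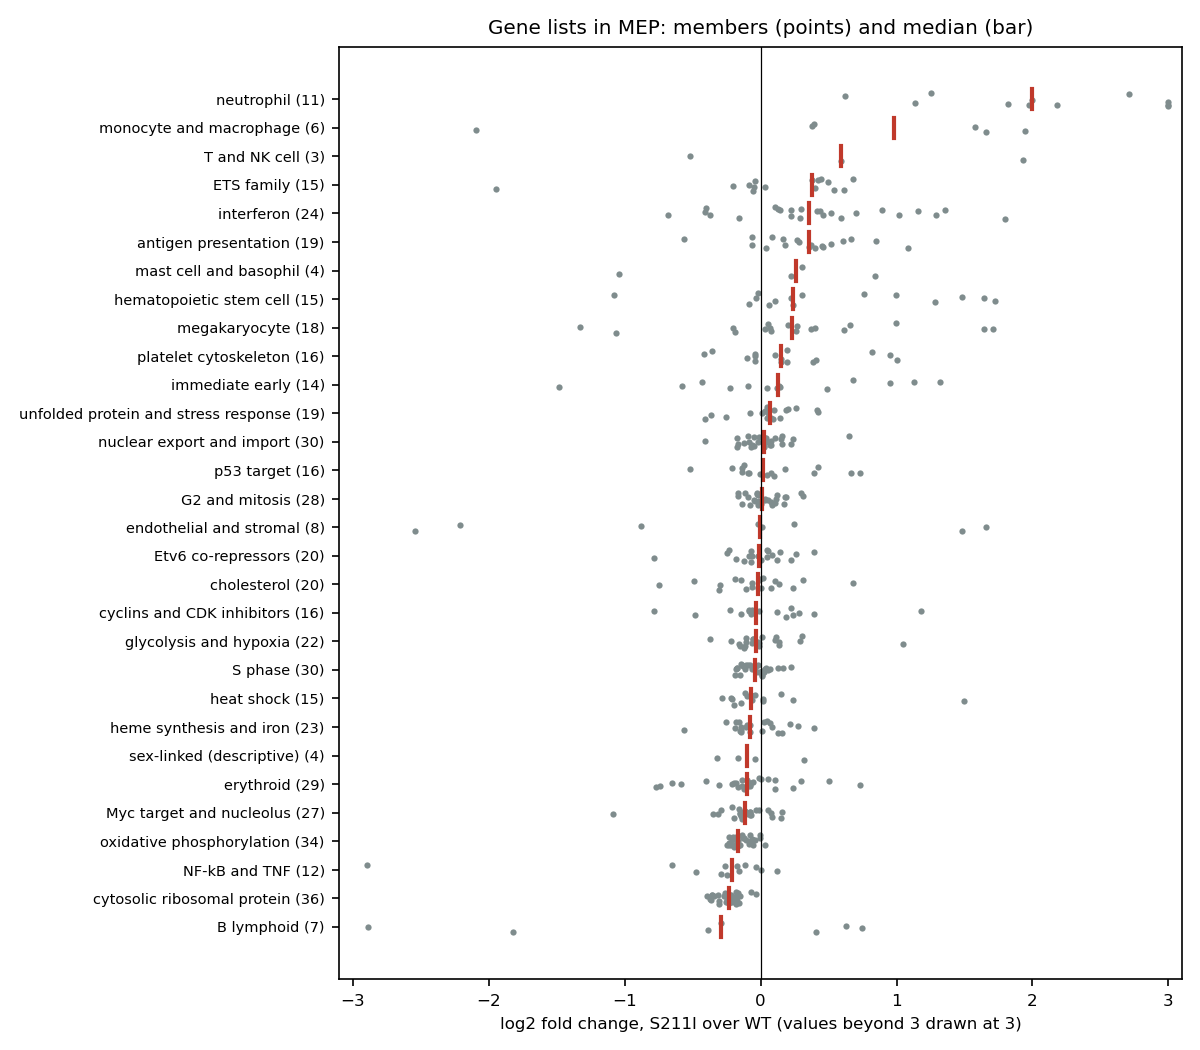
Log2 fold change of S211I over WT for the tested members of each gene list (points) and the list's median (bar), with the number of tested members in brackets; values beyond 3 are drawn at 3. The ribosomal protein members all lie below 0, at −0.40 to −0.03, the cell cycle lists lie close to 0, and the neutrophil members all lie above 0 and spread widely. Neutrophil members near 0 in WT passed the filter through mutant libraries, which favours a positive sign. Members of a list are read in the same libraries and are not independent.

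Genes of the cell cycle were measured within narrow limits. All 30 S phase genes and all 28 genes of G2 and mitosis had intervals within 1, with medians of −0.04 and 0.0086, and 0 of either list reached an unadjusted p of 0.05. Mcm6, of the replicative helicase, stood at 1323 and 1242 CPM in S211I and 1303 and 1339.9 CPM in WT (−0.04, 95% interval −0.28 to 0.19). Pcna, the sliding clamp, stood at 483 and 452 CPM in S211I and 561 and 498 CPM in WT, and Rfc1, of the clamp loader, at 101 and 124 CPM in S211I and 97.9 and 94.2 CPM in WT. Top2a stood at 454 and 505 CPM in S211I and 418 and 433 CPM in WT, Kif11 (a mitotic kinesin) at 303 and 234 CPM in S211I and 213 and 220.1 CPM in WT, and Ccnb2 at 320 and 305 CPM in S211I and 348 and 351 CPM in WT.

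Of 16 tested cyclins, cyclin-dependent kinases and their inhibitors, 11 had intervals within 1. Cdk4 stood at 649 and 697 CPM in S211I and 745 and 687 CPM in WT, and Cdk6 at 121 and 116 CPM in S211I and 132 and 145 CPM in WT. Ccnd1 (cyclin D1) had an unadjusted p below 0.05 with 1 high library, S211I replicate 2, at 3.35 and 10.2 CPM in S211I and 4.07 and 2.15 CPM in WT, and the genotypes overlapped. Of 16 tested p53 targets 8 were positive and 0 reached an unadjusted p of 0.05; Trp53 stood at 314 and 312 CPM in S211I and 296 and 258 CPM in WT, and Bax at 132 and 138 CPM in S211I and 162 and 152 CPM in WT.

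Genes of interferon response and of antigen presentation more often had a positive than a negative log2 fold change. Of 24 tested interferon-stimulated genes, 19 were positive, the median was 0.36, 11 had both S211I libraries above both WT libraries (18.1% of all genes did), and 3 had an unadjusted p below 0.05, all higher (2.85% of all genes). Gbp7, a guanylate-binding protein, stood at 81.9 and 84.2 CPM in S211I and 54.7 and 69.1 CPM in WT (0.42 ± 0.18). Oasl2 stood at 6.52 and 2.32 CPM in S211I and 0.531 and 1.82 CPM in WT, and Gbp3 at 5.03 and 9.81 CPM in S211I and 2.66 and 4.47 CPM in WT. Ifitm2, an antiviral membrane protein and the most abundant member, stood at 231 and 242 CPM in S211I and 214 and 219.8 CPM in WT (0.12, −0.14 to 0.39). Ifih1, a sensor of viral RNA, overlapped, at 23.5 and 31.7 CPM in S211I and 44.8 and 27.3 CPM in WT. The sum over the list was 748 and 764 CPM of the library total in S211I, 892, 714 and 741 CPM in P216L, 626, 677 and 604 CPM in the double mutant and 599 and 658 CPM in WT.

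Of 19 tested antigen presentation genes, 16 were positive, the median was 0.35, 6 had both S211I libraries above both WT libraries and 3 had an unadjusted p below 0.05, all higher (18.1% and 2.85% of all genes did). Without overlap in either direction were 31.6% of the list, against 36.8% of all genes. B2m, the light chain of class I molecules, stood at 1193 and 1335 CPM in S211I and 788 and 1061 CPM in WT (0.45 ± 0.14, edgeR adjusted p 0.94). H2-K1, a class I heavy chain, stood at 555 and 626 CPM in S211I and 385 and 538 CPM in WT (0.35 ± 0.14), and Psmb9, of the immunoproteasome, at 63.5 and 64.7 CPM in S211I and 31.3 and 52.2 CPM in WT (0.60 ± 0.22). In these 3 genes WT replicate 1 was the lowest library. Without it the median of the list was −0.0056, and without WT replicate 3 it was 0.78.

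Lists of stress and metabolism had medians near 0. Of 19 tested genes of the unfolded protein response, 15 were positive with a median of 0.07, or 0.035 without WT replicate 3 and 0.12 without WT replicate 1; Hspa5, the chaperone BiP, stood at 981 and 1014 CPM in S211I and 1010.5 and 878 CPM in WT. Asns, the asparagine synthetase induced by amino acid shortage, stood at 762 and 774 CPM in S211I and 1070 and 977 CPM in WT (−0.41 ± 0.13, without overlap). Of 15 tested heat shock genes, 14 had intervals within 1. Hspa8 stood at 3893 and 3698 CPM in S211I and 3972 and 3544 CPM in WT, the chaperonin subunit Cct2 at 303 and 322 CPM in S211I and 400.5 and 360.0 CPM in WT, and Hspa1b at 6.52 and 0.535 CPM in S211I and 1.95 and 0.662 CPM in WT. Of 22 tested genes of glycolysis and hypoxia, 8 were positive and 16 had intervals within 1. Ldha stood at 1292 and 1405 CPM in S211I and 1520 and 1495 CPM in WT, and the lactate transporter Slc16a1 at 417 and 365 CPM in S211I and 337 and 373 CPM in WT.

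Of 20 cholesterol synthesis genes, 7 were positive and 14 had intervals within 1; beside Fdft1, Sqle stood at 125 and 124 CPM in S211I and 105 and 140 CPM in WT. Of 12 tested genes of NF-kB signalling, 2 were positive and the median was −0.21, or −0.073 without S211I replicate 1. Tnfaip2, the most abundant, stood at 510 and 542 CPM in S211I and 560 and 489 CPM in WT. Relb, of the alternative NF-kB pathway, had 4 counts over the S211I libraries and 51 over the WT libraries, a ratio of 0.130 (exact counting interval 0.0340 to 0.353), and Tnfaip3 stood at 10.2 and 6.24 CPM in S211I and 10.1 and 5.38 CPM in WT. Of 14 tested immediate early genes 9 were positive with a median of 0.13, or 0.037 without WT replicate 3 and 0.34 without WT replicate 1. Klf6 stood at 13.2 and 7.13 CPM in S211I and 2.48 and 5.38 CPM in WT (1.32 ± 0.51), Junb at 24.2 and 31.6 CPM in S211I and 42.0 and 33.6 CPM in WT, and Jund at 68.0 and 64.4 CPM in S211I and 72.4 and 48.3 CPM in WT.

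Transcripts of stem cells and of other blood cells were present at low levels, and none passed the adjustment. Of 25 listed stem cell genes 15 passed the filter on low counts, 11 were positive and 6 had both S211I libraries above both WT libraries (18.1% of all genes did; without overlap in either direction were 40.0% of the list, against 36.8% of all genes). The 7 stem cell markers (Procr, Hlf, Mecom, Meis1, Cd34, Ly6a, Flt3) summed to 32.0 to 35.9 CPM in S211I and 11.6 to 21.4 CPM in WT. Cd34, a surface protein of early progenitors, stood at 14.5 and 15.3 CPM in S211I and 1.77 and 6.79 CPM in WT (1.73 ± 0.65). Kit, the stem cell factor receptor, stood at 707 and 774 CPM in S211I and 568 and 688 CPM in WT (0.24, 95% interval −0.17 to 0.65). Mmrn1 was high in 1 WT library, at 4.84 and 4.82 CPM in S211I and 16.1 and 4.72 CPM in WT.

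Of 17 listed neutrophil granule genes 11 passed the filter, and all 11 were positive. In 4 both S211I libraries lay above both WT libraries (without overlap in either direction were 36.4% of the list, against 36.8% of all genes). The median was 1.99, which is the same with Mmp8, listed at 0 in WT, at its bound of at least 6.06-fold. The 5 neutrophil markers (Elane, Mpo, Prtn3, S100a8, S100a9) summed to 16.5 to 77.0 CPM in S211I and 2.42 to 16.1 CPM in WT. Mpo, the myeloperoxidase of granules, stood at 13.2 and 53.5 CPM in S211I and 1.06 and 12.2 CPM in WT. Elane stood at 0 and 8.02 CPM in S211I and 0 and 0.331 CPM in WT. S211I replicate 2 was the high library, and without it the median of the list was −0.94. The sums of the list were 20.8 and 110 CPM in S211I, against 3.63 and 21 CPM in WT, and overlapped. In P216L the sums were 35.2, 45.8 and 177 CPM and in the double mutant 46.2, 35.9 and 89.4 CPM, all above both WT libraries.

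The 4 monocyte markers (Lyz2, Csf1r, Irf8, C1qa) summed to 12.9 to 22 CPM in S211I and 5.19 to 8.45 CPM in WT. Lyz2 stood at 13.6 and 7.67 CPM in S211I and 3.01 and 3.97 CPM in WT, and Csf1r at 5.40 and 0.892 CPM in S211I and 0 and 1.41 CPM in WT. The B cell markers (Cd79a, Pax5, Ebf1) summed to 6.92 to 15.3 CPM in S211I and 7.61 to 14.3 CPM in WT. T and NK cell markers (Cd3e, Cd4, Cd8a, Nkg7) summed to 10.3 to 15.3 CPM in S211I and 4.50 to 11.5 CPM in WT. Endothelial and stromal markers (Cdh5, Pecam1, Cxcl12, Col1a1) summed to 2.73 to 4.11 CPM in S211I and 2.42 to 7.08 CPM in WT. Of the mast cell and basophil markers, Mcpt8, Prss34 and Fcer1a were at 0 in all 4 libraries, and the sum, which is Cpa3, was 7.47 to 7.67 CPM in S211I and 5.36 to 7.17 CPM in WT. The genotypes overlapped for the B cell, T and NK cell and endothelial marker sums and not for the stem cell, neutrophil, monocyte and Cpa3 sums. The neutrophil marker sums were barely apart, at 16.5 CPM in the lower S211I library and 16.1 CPM in the higher WT library. A lack of overlap was common, as 36.8% of all genes had none. Summed over the full lists, the genotypes overlapped for neutrophil, monocyte and mast cell genes and not for stem cell genes. The part of the transcripts of these cell types in the differences above was not tested, and in bulk libraries more cells of a type and more RNA per cell cannot be told apart.

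Few single members of the rarer cell type lists were measured well. Igll1, of early B cells, stood at 5.40 and 6.06 CPM in S211I and 2.48 and 4.22 CPM in WT, and Cd79a at 7.08 and 4.10 CPM in S211I and 5.31 and 9.11 CPM in WT. Nkg7 stood at 10.2 and 14.1 CPM in S211I and 4.43 and 11.3 CPM in WT. Gata2, which mast cells share with early progenitors, stood at 69.8 and 87.7 CPM in S211I and 53.8 and 73.1 CPM in WT, and overlapped. Pdgfrb, a stromal receptor, stood at 3.73 and 4.46 CPM in S211I and 6.02 and 8.94 CPM in WT, and Sparc, of the matrix, at 0.745 and 0 CPM in S211I and 2.12 and 2.32 CPM in WT. Of the sex-linked genes, the Y-linked Eif2s3y stood at 100.2 and 116 CPM in S211I and 121 and 121 CPM in WT, and Uty at 63.0 and 56.0 CPM in S211I and 42.7 and 52.4 CPM in WT, so Y-linked transcripts were read in all 4 libraries.

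No gene separated S211I from P216L MEP past the adjusted threshold with edgeR, and a small group of genes was higher in S211I than in double mutant MEP. Between S211I and P216L, 0 of 10773 genes passed an edgeR adjusted p of 0.05 (0%), with 594 at an unadjusted p below 0.05 (5.51%; 314 higher in S211I, 2.91%, and 280 lower, 2.60%) and a smallest adjusted p of 0.35; DESeq2 called 1 gene, Sh3tc2. Between S211I and the double mutant 15 genes passed (0.139%), all higher in S211I. At an unadjusted p below 0.05 there were 821 (7.62%), of which 474 were higher (4.40%) and 347 lower (3.22%). Other settings also called genes lower in S211I, 5 of 28 with DESeq2 and 4 of 33 with voom. Mbd2, a reader of methylated DNA in NuRD complexes, was higher in S211I than in the double mutant, at 416 and 449 CPM in S211I, against 210.4, 174 and 213 CPM in the double mutant (log2 fold change 1.12 ± 0.12, edgeR adjusted p 5.9e-05). Qk, an RNA-binding regulator of splicing, was at 181 and 169.8 CPM in S211I, against 65.6, 64.3 and 63.9 CPM in the double mutant (1.44 ± 0.16, edgeR adjusted p 7.0e-05). Cul3, the scaffold of a ubiquitin ligase, was at 179 and 168 CPM in S211I, against 77.5, 77.8 and 79.2 CPM in the double mutant (1.15 ± 0.15, edgeR adjusted p 0.00057). In all 3 the libraries of S211I and the double mutant stood far apart.

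Against WT the differences of these 3 genes were smaller, and none passed the adjustment. Mbd2 stood at 457 and 485 CPM in WT (log2 fold change of S211I over WT −0.12, 95% interval −0.39 to 0.14), Qk at 123 and 134 CPM in WT (0.45 ± 0.17) and Cul3 at 141 and 179.9 CPM in WT (0.11, −0.23 to 0.44). The other 12 called genes were Ybx3, Smad4, Znrf2, Sh3tc2, Brd1, Ppp2cb, Sirt1, Tada2b, Khdrbs3, Retreg1, Gm7334 and Nfix. Ybx3, a cold shock domain protein that binds RNA, stood at 1509 and 1457 CPM in S211I, 965, 739 and 804 CPM in the double mutant and 1584.5 and 1505 CPM in WT. Smad4, the common mediator of TGF-beta signalling, stood at 49.5 and 40.7 CPM in S211I, 18.7, 19.1 and 16.9 CPM in the double mutant and 44.4 and 34.2 CPM in WT. Sirt1, a deacetylase, stood at 67.6 and 58.0 CPM in S211I, 35.9, 30.9 and 31.2 CPM in the double mutant and 51.7 and 58.1 CPM in WT.

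Over the 15 genes, which were chosen for their difference from the double mutant, the median log2 fold change over WT was 0.24 for S211I, −0.02 for P216L and −0.99 for the double mutant, and these share the WT libraries. Of the 15, 10 had intervals of S211I over WT within 1. Of the 15, 4 (Qk, Sh3tc2, Gm7334 and Nfix) had an unadjusted p below 0.05 against WT (4.74% of all genes did); the choice of the 15 used the same S211I libraries, so nothing is read from this count. Mbd2, Qk and Cul3 passed under all 11 settings tried, Ybx3 under 10 and Smad4 and Brd1 under 7. Leaving out 1 library of either group moved the count of 15 to between 4 and 8, with 4 genes without S211I replicate 1, 6 without S211I replicate 2, 4 without double mutant replicate 1, 4 without double mutant replicate 2 and 8 without double mutant replicate 3.

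**Figure D5:**
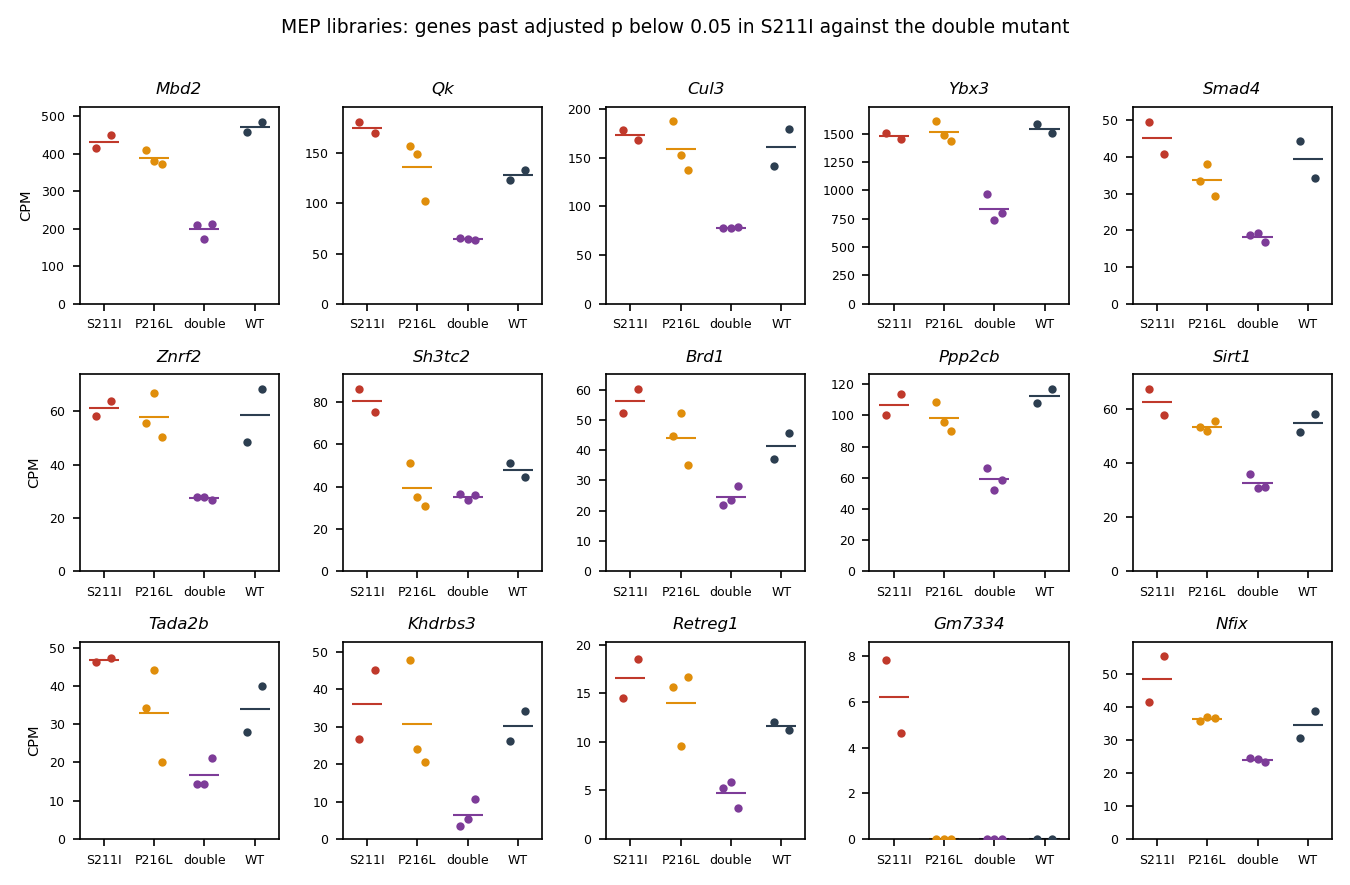
CPM in each MEP library (points; bar, mean of the group) for genes that differed between S211I and the double mutant, with S211I left, then P216L, the double mutant and WT; the y axis starts at 0. Qk lies at 181 and 169.8 CPM in S211I and between 63.9 and 65.6 CPM in the double mutant, and the S211I, P216L and WT libraries all lie above the double mutant for Mbd2, Qk and Cul3.

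Genes near Etv6 on chromosome 6 had log2 fold changes spread around 0. Of the 50 tested genes nearest to it, 25 on each side in annotation order, 24 had a positive log2 fold change, 0 had an unadjusted p below 0.05, 17 had no overlap between S211I and WT (34.0%, against 36.8% of all genes) and the median was −0.02.

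ETS factors bind a core of GGAA, and promoters of the leading genes were searched for the ETS motif CCGGAAG or its reverse complement CTTCCGG, in RefSeq windows (GRCm38.p6) of 250 bases before and 50 bases after a gene's start. A window was given for 6 of the 10 genes with the smallest p on the higher side and for 8 of the 10 on the lower side. It was given for 8742 of the 10773 genes tested, and genes without a window were not searched. The motif stood in 2 of 7 windows on the higher side (Spice1 and Snx14) and in 1 of 9 windows on the lower side (Helb). Over the genes tested that had a window, the motif stood in 2172 of 11133 windows (19.5%). Among genes at an unadjusted p below 0.05 it stood in 62 of 320 windows on the higher side (19.4%) and in 29 of 195 on the lower side (14.9%). One promoter of each direction is shown, as these hold the motif (capitals) among the genes that lead the comparison: Spice1 at chr16:44347151-44347450, plus strand, and Helb at chr10:120112916-120113215, minus strand, both read in the direction of the gene.
Spice1 promoter: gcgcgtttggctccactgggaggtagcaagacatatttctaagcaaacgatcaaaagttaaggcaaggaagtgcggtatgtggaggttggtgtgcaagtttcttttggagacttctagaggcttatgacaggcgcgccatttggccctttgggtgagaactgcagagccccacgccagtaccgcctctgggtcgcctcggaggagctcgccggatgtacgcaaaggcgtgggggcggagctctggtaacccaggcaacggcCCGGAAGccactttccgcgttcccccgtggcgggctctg
Helb promoter: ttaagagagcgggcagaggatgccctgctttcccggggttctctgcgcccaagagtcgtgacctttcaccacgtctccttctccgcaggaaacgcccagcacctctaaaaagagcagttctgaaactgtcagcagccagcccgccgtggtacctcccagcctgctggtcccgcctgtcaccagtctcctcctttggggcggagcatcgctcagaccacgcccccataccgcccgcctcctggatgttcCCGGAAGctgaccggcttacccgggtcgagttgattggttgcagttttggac
A match is a run of letters in these windows and was not tied to binding of Etv6, which these libraries did not measure.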

How the data were processed

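Bulk RNA-seq libraries of sorted mouse cells were analysed from the authors' deposited table of estimated counts, 30519 genes by 21 libraries. The submitters' processing notes name FastQC, Salmon and GRCm39, and the labels' protocols name the NucleoSpin RNA XS and SMART-Seq v4 kits. The estimated counts were rounded; before rounding 25.8% to 33.1% of nonzero values per MEP library were not whole. Gene IDs were matched to RefSeq GRCm38.p6 (30211 matched), which gives names only. All 10 MEP libraries were fitted with edgeR 4.0.16 (TMM, filterByExpr at 10 counts and 15 in total, robust quasi-likelihood test, two-sided, R 4.3.3) and 10773 genes were tested; the biological coefficient of variation was 0.174. DESeq2 1.42.0 and limma 3.58.1 served as alternatives, beside other scaling, no filter, a replicate block, only the 2 groups, and each library left out. Errors after ± are SE, and intervals are 95% intervals of the fit. Counts limit precision, since amplified reads without molecular identifiers are not independent molecules; intervals of ratios and floors of 3 counts cover counting error only. The replicate libraries differed by more than sampling noise.

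Named genes were Etv6, the 10 with the smallest p per direction (fewer than 20 passed), the 10 largest changes per direction at a mean of at least 20 CPM without overlap, the most abundant and smallest-p members of each list, and up to 10 genes called against each other mutant; further list members with an unadjusted p below 0.05 and lineage genes were added after their values were seen. The members and lists were chosen with earlier results of these data known. The fit was tested on simulated data. A few genes of these lists are not reported here by name and were left out of the marker sums and of the plots of single genes.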

Additional observations from a re-analysis of the deposited data

How the results depend on the processing

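The count of 0 genes between S211I and WT was 0 under all 10 alternatives, with 280 (without WT replicate 1) to 934 (without WT replicate 3) genes at an unadjusted p below 0.05. Between S211I and P216L it was 3 with no filter on low counts (Trex1, Sh3tc2 and Gm7334) and 1 with DESeq2. Between S211I and the double mutant, 15 became 51 with no filter (13 of them lower in S211I), 28 with DESeq2 (5 lower) and 33 with voom (4 lower). The count was 28 with only those 2 groups fitted (4 lower), and 4 to 8 with 1 double mutant library left out, all higher. Fewer libraries inform the last 2 settings, and the causes of these changes in count were not tested.

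Same-numbered libraries did not deviate together: 0 of 12 pairs had a correlation of deviations over 0.1, with a range of −0.0921 to 0.0344. A fit with the replicate number as a block, which S211I and WT share for number 1 alone, gave 0 genes against WT, 363 at an unadjusted p below 0.05, and 10 against the double mutant. Under this replicate block the median was −0.12 for ribosomal proteins, −0.093 for oxidative phosphorylation, −0.046 for heme and iron, 0.038 for the unfolded protein response, 1.11 for stem cell and 3.71 for neutrophil genes, and the sign of Kit (−0.0087), Tnfaip2 (−0.092) and Hspa8 (−0.0029) turned, all near 0.

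The spread of a list was the pooled standard deviation, within MEP groups, of its median log2 CPM per library. Of 300 list medians under alternatives 277 moved by less than this spread. Lists that vary more between libraries are allowed larger moves, so the count does not show that their medians held. Of the 23 others 20 came with a library left out. Such medians ran from 0.10 to 0.75 (stem cell), −0.94 to 5.64 (neutrophil), 0.42 to 1.67 (monocyte), −0.83 to 0.81 (B lymphoid), 0.32 to 1.46 (T and NK), −0.37 to 0.50 (mast cell) and −0.36 to 0.56 (endothelial). They ran from −0.0056 to 0.78 (antigen presentation), −0.32 to −0.073 (NF-kB), −0.12 to 0.12 (p53), −0.046 to 0.0996 (G2 and mitosis), −0.14 to 0.0060 (heat shock), −0.10 to 0.056 (cholesterol), −0.059 to 0.52 (ETS) and −0.22 to 0.37 (sex-linked). With voom the ETS median was −0.021 and the immediate early median 0.045.

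Of 1270 values of named genes under alternatives 29 changed sign and 0 passed the adjusted threshold against WT. With no filter Tnfaip2 was −0.0073 and Sqle −0.00053, and with voom Sqle was −0.014. With a library left out, log2 fold changes of genes whose sign turned ran from −1.73 to 0.030 (Mmrn1), −0.83 to 0.072 (Cd79a), −1.12 to 0.32 (Lck), −0.70 to 0.012 (Ifih1), −0.089 to 0.10 (Tnfaip2), −0.29 to 0.61 (Tnfaip3) and −0.13 to 0.45 (Jund). The ranges were −0.086 to 0.0014 (Mcm6), −0.016 to 0.080 (Sdha), −0.019 to 0.18 (Hspa5), −0.065 to 0.096 (Hspa8), −1.19 to 2.38 (Hspa1b), −0.18 to 0.24 (Sqle) and −0.36 to 0.23 (Gabpa). They were −0.14 to 0.0041 (Mta2), −0.055 to 0.30 (Cul3), −0.16 to 0.33 (Znrf2) and −0.17 to 0.013 (Ppp2cb). Depth limits genes under 20 CPM.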

Other observations

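Beside Gm7334, further genes were at 0 in both libraries of one genotype and above the limit of 3 counts in the other: 10 genes at 0 in WT and 11 at 0 in S211I, Gm7334 counted among the 10. They were picked out after their values were seen. Fam177a, whose copy Fam177a2 is described above, was at 0 in both WT libraries and also stood at 17 CPM of the library total in P216L replicate 2 and 13.7 CPM in double mutant replicate 2, at 0 in the other P216L and double mutant libraries. Trex1, a DNA exonuclease that overlaps Atrip in the genome, stood at 0 and 8.94 CPM in S211I and 0 and 0 CPM in WT; Atrip stood at 41.2 and 43.4 CPM in S211I and 35.5 and 40.9 CPM in WT.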
